A study of Mus musculus with 35 samples.

Results

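The basal layer of the hard palate, the keratinised lining of the roof of the mouth, was compared with the basal layer of tail skin in 10 of the 35 RNA-seq libraries of the series. The members were taken by their labels: 4 palate libraries and 6 tail libraries of sorted basal cells. All came from 2-month-old C57BL/6J mice carrying K5-tTA/pTRE H2B-GFP. In these, the keratin 5 promoter drives a doxycycline-repressible histone-GFP, so that only keratin 5-expressing cells could make the label. Doxycycline was given for 10 days to mice used for oral tissue and for 2 weeks to mice used for skin. Cells that kept the label are called label-retaining (LRC, slow-cycling) and cells that lost it non-label-retaining (nLRC, fast-cycling), with 2 palate libraries (numbered 1 and 2) and 3 tail libraries (numbered 1 to 3) of each class. The label class was a term of the test, so a palate minus tail difference is an average over both classes, which can differ in single genes. Because the doxycycline time also differed, tissue and length of label dilution cannot be told apart. The labels do not tie libraries to animals, and the spread between libraries of a group, on which each p-value rests, may be technical. Where the test averaged over both classes, the spread behind the p-value also holds any dependence of the tissue difference on label class.

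Stratified epithelia renew from a basal layer that rests on a basement membrane, expresses keratins 5 and 14, and sends daughters upwards to differentiate. Basal cells of different sites hold a memory of body position in their transcription factors: Hox genes mark positions along the trunk, limbs and tail, while the face and mouth arise from Hox-negative tissue that uses Pitx, Pax, Eya, Dlx and related factors. Cells leaving the basal layer of epidermis switch on keratins 1 and 10, whereas oral epithelia can instead use keratins 4, 13 and 76, and mouse tail skin alternates interscale epidermis with scales that make hair-type keratins.

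A pair of oral and a pair of epidermal keratin genes with opposite patterns, not the 4 largest differences, are shown by the 200 bases before their start sites, from RefSeq on GRCm38.p6, all on the minus strand and written 5′ to 3′. Capitals mark matches, on either strand, to TATAAA (the core promoter box), TAATCC (known for Pitx factors, Pitx-type below) or AGATAA (known for the Gata family, Gata-type below), and AACAAT (known for Sox factors, Sox-type below) was also searched. Krt76 and Krt13 were high in palate, and Krt2 and Krt10 were high in tail.
Krt76 (chr15:101892921-101893120): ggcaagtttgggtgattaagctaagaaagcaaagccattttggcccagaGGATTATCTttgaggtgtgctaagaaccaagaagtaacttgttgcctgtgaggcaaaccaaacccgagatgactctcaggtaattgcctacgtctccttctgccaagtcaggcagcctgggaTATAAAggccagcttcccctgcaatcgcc
Krt13 (chr11:100121567-100121766): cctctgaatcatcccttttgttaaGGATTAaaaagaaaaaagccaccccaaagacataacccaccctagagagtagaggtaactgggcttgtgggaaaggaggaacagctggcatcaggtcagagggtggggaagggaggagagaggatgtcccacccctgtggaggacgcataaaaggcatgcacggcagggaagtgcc
Krt2 (chr15:101818170-101818369): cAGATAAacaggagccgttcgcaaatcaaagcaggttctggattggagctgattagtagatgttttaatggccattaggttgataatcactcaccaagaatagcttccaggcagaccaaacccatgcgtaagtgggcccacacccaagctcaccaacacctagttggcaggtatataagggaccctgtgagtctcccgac
Krt10 (chr11:99389365-99389564): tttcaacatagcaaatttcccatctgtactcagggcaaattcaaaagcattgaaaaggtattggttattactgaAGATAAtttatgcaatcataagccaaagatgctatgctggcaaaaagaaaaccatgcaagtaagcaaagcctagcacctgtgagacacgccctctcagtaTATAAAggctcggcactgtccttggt
Krt76 held a Pitx-type match starting at −151 on the opposite strand, a Gata-type match at −148 that overlaps it, and TATAAA at −29. Krt13 held a Pitx-type match at −176 on the opposite strand, and RefSeq lists 2 start sites for it. Krt2 held a Gata-type match at −199, and Krt10 a Gata-type match at −126 and TATAAA at −26. No AACAAT was in these 4 windows. Among 32851 windows of 200 bases (27025 genes), 4.91% held the Pitx-type letters, 7.8% the Gata-type, 7.46% the Sox-type and 9.96% TATAAA. These are matches of letters only, and binding was not measured.

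The palate libraries held 11680595 to 15641556 reads in genes and the tail libraries 10975551 to 14093720. Palate nLRC 2 stood apart by a scaling factor of 0.671 and a median intron share of 7.95%, against 26.0 to 31.4% in the other palate libraries. Tail LRC 2 had the highest intron share, 44.96%. All 4 palate libraries held reads of both Xist and Y-linked genes, whereas tail libraries 1 and 3 held Y-linked reads and tail 2 Xist reads. The headers carry different run codes for palate, tail 1 and 2, and tail 3, so run and tissue cannot be told apart. The first principal component held 47.2% of the variance and separated the tissues. Levels below are CPM, reads of a gene relative to the TMM-scaled library size, and compare the same gene between libraries. TPM, which rest on exon reads and account for length, are used between genes.

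Palate and tail basal cells differed in 3682 of 15292 tested genes (24.1%; edgeR, adjusted p below 0.05). In palate, 1972 genes (12.9%) were higher, by a median of 2.16-fold, and 1710 (11.2%) were lower, by a median of 2.10-fold. Every palate library lay outside the tail range for 2653 genes (17.3%), above it for 9.24% of genes tested and below it for 8.11%. Of the genes past the test, 159 were higher and 163 lower by more than 16-fold. When LRC and nLRC reads of the same tissue and number were summed, because these deviated together, 1878 genes passed (1008 higher, 870 lower). On unscaled log2(TPM + 1) values the split was 737 higher to 2391 lower (limma), with the median of all genes shifted by −0.275. After TMM scaling of TPM it was 1675 to 1578. In bulk libraries, fewer cells of a type and less RNA per cell cannot be told apart.

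**Figure D1:**
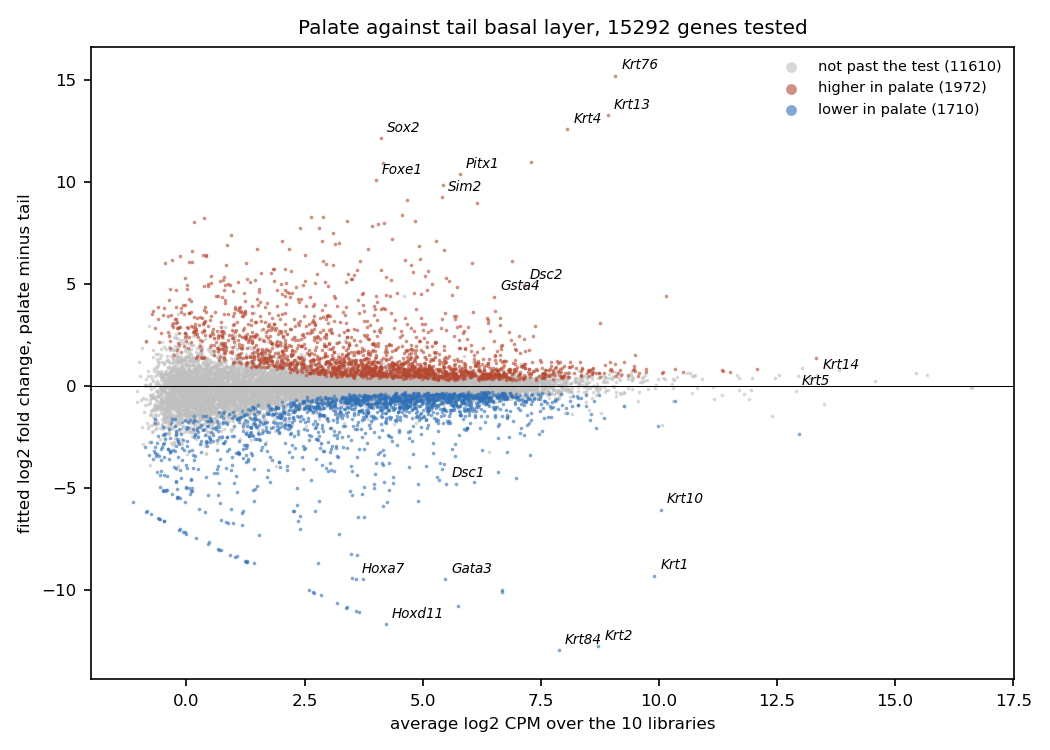
Palate minus tail log2 fold change of each of the 15292 tested genes against its average log2 CPM, with 1972 genes higher and 1710 lower in palate past the test in colour. The keratin and transcription factor genes named in the text lie at both extremes.

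The basal identity that the 2 tissues share was measured first. None of the 3 basal keratins passed the test between palate and tail, nor did the lineage factor Trp63 or the adhesion genes Itga6, Itgb4 and Col17a1. Other adhesion genes did pass: of 24 tested basement membrane and hemidesmosome genes, 4 were higher and 8 lower in palate. Over all genes tested, 12.9% were higher and 11.2% lower, so that the higher count is near the share over all genes. Krt5, the basal type II keratin, lay at 5832 and 5234 CPM in palate LRC, 5895 and 9447 in palate nLRC, and 5084 (lowest), 7308 (median) and 13052 (highest) in tail. Krt14, its partner, lay at 9058, 10345, 9470 and 19591 in the same palate order and at 5068, 7998 and 15791 in tail. The ranges overlapped for both keratins. Differences on the log2 scale were −0.25 ± 0.22 (SE) for Krt5, 0.53 ± 0.26 for Krt14, 0.35 ± 0.15 for Itga6 (integrin α6), 0.17 ± 0.16 for Itgb4 (integrin β4), −0.04 ± 0.17 for Col17a1 (the hemidesmosomal collagen) and −0.14 ± 0.15 for Trp63 (the p63 lineage factor). Per length, Krt5 reached 5178 ± 886 TPM in palate and 8672 ± 2158 in tail (SD, n = 4 and 6). On unscaled TPM, 2 of the 3 basal keratins passed as lower in palate.

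Keratins of the oral, epidermal and hair groups included some of the largest differences. Of 11 oral and stress keratins, 9 were higher in palate and none lower, with a median log2 difference of 3.03 against −0.02 over all genes. Of these 9, Krt76, Krt13 and Krt4 had fewer than 10 reads in every tail library and passed the filter on low counts through the palate, which fixes their direction. Of 7 epidermal suprabasal keratins, 4 were lower and 1 (Krt23) higher, beside 11.2% lower and 12.9% higher over all genes tested. Krt2, among the lower, had fewer than 10 reads in every palate library and Krt23 in every tail library, so the filter fixes their direction too. Hair and scale keratins were lower in 4 of 7 tested genes, each with fewer than 10 reads in every palate library, and higher in 1 (Krt90), a call lost without palate LRC 1, without tail nLRC 3 or without any 1 of the tail LRC libraries.

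Krt76, a type II keratin of the keratinised hard palate (ENSMUSG00000075402.1, chr15:101884351-101892920), lay at 711 and 1620 CPM in palate LRC and 841 and 2234 in palate nLRC, against 0, 0 and 0.0961 in tail (lowest, median, highest). The palate held 65025 reads and the tail 2, a counted ratio of 45585 (95% counting interval 12619 to 376420; adjusted p = 7.1e-08). Krt13, a type I keratin of internal stratified epithelia, lay at 1876, 938, 1534 and 469 CPM in the same palate order and at 0, 0.0724 and 0.43 in tail, a log2 difference of 13.26 ± 0.60. No tail library reached 1 CPM of either gene. Krt4, the usual partner of Krt13, lay at 1173, 341, 980.3 and 171 CPM in palate and at most 0.251 in tail. Within palate, Krt13 and Krt4 were both highest in the libraries numbered 1 and lowest in nLRC 2, while Krt76 was highest in nLRC 2.

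Keratins induced by wounding were present in both tissues at different levels. Krt6a, which is constitutive in mouth and induced in injured skin, lay at 2324, 2535, 2095 and 3689 CPM in palate and at 60.8, 129.6 and 237 in tail, 20.8-fold higher in palate. Krt6b was 11.7-fold, Krt24 7.72-fold, Krt16 5.44-fold and Krt17 3.31-fold higher, each with every palate library above every tail library. Krt19 and the simple keratins Krt8 and Krt18 also passed the test, but palate LRC 1 held most of their reads. Its levels were 23.5, 21.6 and 15.1 CPM, and the other palate libraries lay at 0.638 to 5.04. The same library alone held gland-type reads, with Muc5b, a salivary mucin, at 229 CPM against 0 to 2.52 in the other palate libraries. The part of gland cells in the Krt19, Krt8 and Krt18 values was not tested, and Krt19 no longer passed without palate LRC 1 (adjusted p = 0.22) or without any 1 of the tail LRC libraries.

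Epidermal keratins showed the opposite order. Krt1 lay at 2.70 and 0.0759 CPM in palate LRC and 3.93 and 1.91 in palate nLRC, against 672, 1387 and 2748 in tail, 631-fold lower in palate (adjusted p = 1.3e-05). Krt10, its partner, lay at 15.4, 59.4, 19.8 and 14.3 CPM in palate and at 1330, 1754 and 2078 in tail, 67.1-fold lower. Krt2, a late epidermal keratin, held 5 reads in palate, all in LRC 1, and 422, 705 and 1078 CPM in tail. No palate library reached the tail range of any of the 3 genes. Per length in tail, Krt10 reached 2107 ± 763 and Krt1 1702 ± 1063 TPM, beside 8672 ± 2158 for Krt5.

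Scale and follicle keratins of the tail were near 0 in palate and unequal between the label classes of the tail. Krt84, a hair-type keratin of tail scale, held 2 reads in palate and 26755 in tail, a counted ratio of 9541 (2641 to 78789). In tail LRC it lay at 35.4 to 131 CPM and in tail nLRC at 536 to 1014. Krt36, another hair-type keratin, lay at 0 to 0.38 CPM in palate, 18.8 to 60.6 in tail LRC and 268 to 368 in tail nLRC. Krt79, a keratin of the upper follicle and sebaceous duct, lay the other way within tail, at 156 to 397 CPM in LRC and 39.1 to 70.4 in nLRC, and at 0 to 0.24 in palate. The palate values of these genes lay below both tail classes.

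**Figure D2:**
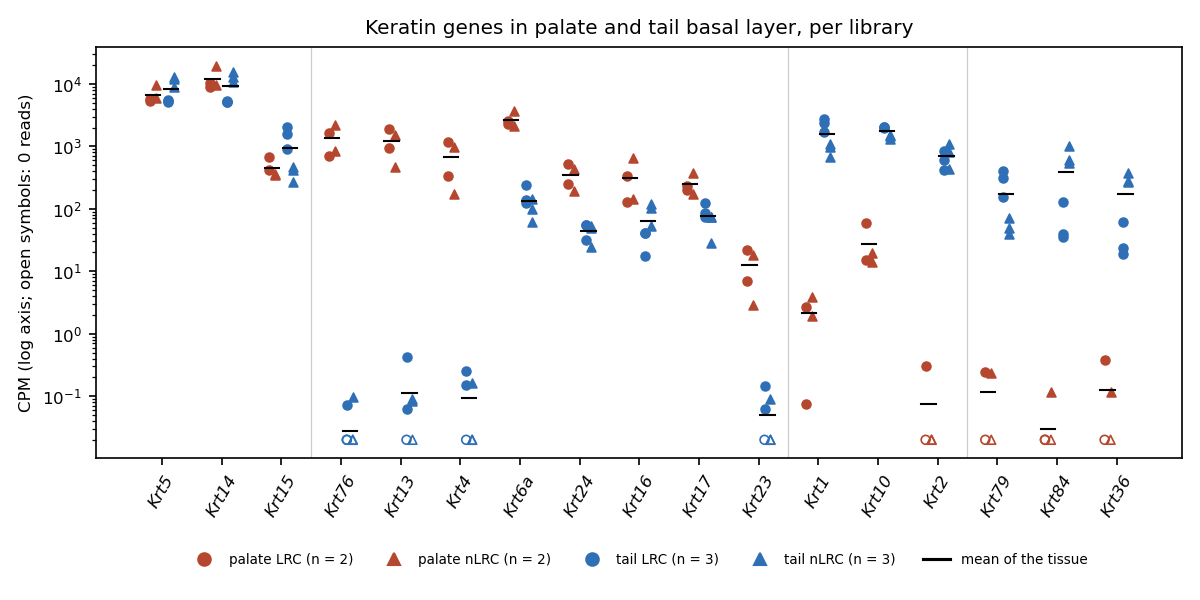
CPM (log axis) of 17 keratins in each palate and tail library, with circles for LRC, triangles for nLRC, open symbols for 0 reads and black bars for the tissue mean. Krt76, Krt13 and Krt4 lie above 100 CPM in palate and below 1 CPM in tail, Krt1, Krt2 and Krt10 lie above 400 CPM in tail and below 60 CPM in palate, and Krt5 and Krt14 overlap.

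Transcription factors of body position separated the tissues into a Hox-positive tail and a Hox-poor palate. The 39 Hox genes together held 17549 reads in tail and 70 in palate, or 214 to 289 CPM per tail library and 0.383 to 2.22 per palate library. No read fell on 23 of the 39 genes in palate, and none on 2 in tail. The 26 Hox genes that passed the low-count filter did so through the tail, so that all 26 being lower in palate follows from the filter, and the median of their log2 differences with bounds was −6.00. Hoxd11, a posterior gene (ENSMUSG00000042499.13, chr2:74679557-74687016), held no read in palate and lay at 27.8, 29.1 and 41.2 CPM in tail, at least 128-fold lower against a floor of 3 reads per library. Hoxd10 was at least 85.1-fold, Hoxd8 at least 71.4-fold and Hoxb6 at least 61.9-fold lower. Hoxa7 held 1 read in palate and 1489 in tail, a ratio of 1062 (190.3 to 41974), and Hoxa9 3 and 1522 reads, a ratio of 362 (124 to 1757). Hoxc13, a regulator of hair and nail keratins, held 1 and 1534 reads, a ratio of 1094 (196 to 43242). The posterior groups 9 to 13 and the groups 1 to 8 contributed 9248 and 8301 of the tail reads.

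Factors of mouth and face were higher in palate in 12 of 21 tested genes of 32 listed, and lower in none. Their median log2 difference was 1.92, and over all genes tested 12.9% were higher and 11.2% lower. Of these 12, Pitx1, Sox2, Pax9, Foxe1 and Six2 had fewer than 10 reads in every tail library, so that they entered the test through the palate and their direction follows from the filter. Pitx1, a homeodomain factor of the first pharyngeal arch and hindlimb (ENSMUSG00000021506.7, chr13:55825051-55836192), lay at 109, 107, 136 and 196 CPM in palate and at 0, 0.0383 and 0.215 in tail, 1323-fold higher. Sox2, a factor of oral and foregut epithelium (ENSMUSG00000074637.7, chr3:34650405-34652461), lay at 35.04, 44.7, 42.5 and 50.5 CPM in palate with no read in tail, at least 181-fold higher. It lies inside the long noncoding gene Sox2ot, so reads of these 2 genes may not be told apart. Pax9, needed for palate and tooth formation, was 105-fold higher. Foxe1, a forkhead factor whose loss causes cleft palate, held 2047 reads in palate and 2 in tail, a ratio of 1435 (397 to 11857). Every palate library lay above every tail library for these 4 genes.

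Eya proteins are phosphatase co-activators of DNA-binding factors such as Six2. Of 6 tested genes of these families 4 were higher in palate (Six2 not without palate LRC 1) and none lower. Over all genes tested, 12.9% were higher and 11.2% lower. Eya4 lay at 114, 121, 125 and 69.2 CPM in palate and at 0, 0.281 and 6.38 in tail, 99.4-fold higher. Eya1 lay at 115, 141, 70.7 and 56.0 CPM and at 0, 0.446 and 2.79, 135-fold higher. The highest tail value of both genes was in tail LRC 2. Eya2 was 3.78-fold higher with overlapping ranges. Of 7 tested Dlx and Msx genes only Dlx6 and Msx2 passed, and neither passed without either palate LRC library, without tail nLRC 3 or without any 1 of the tail LRC libraries. Msx2 also did not pass without tail nLRC 2, and its difference among nLRC was 0.01 ± 0.25 (log2). Isl1, a LIM homeodomain factor, was 84.9-fold higher, whereas Lhx2 (−1.73) and Barx2 (−0.16, both log2) did not pass.

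Other site factors moved both ways. Tbx1, a T-box factor of pharyngeal and dental epithelium, was 8.60-fold higher in palate, and Meis2, a Hox and Pbx cofactor, lay at 216, 269.7, 202 and 113 CPM in palate and 4.90, 17.9 and 39.8 in tail, 12.7-fold higher. Meis1 was 2.30-fold higher. Of 5 tested Iroquois genes 4 were lower and none higher, beside 11.2% and 12.9% of all genes tested. Among the lower were Irx3 by 5.70-fold and Irx5 by 5.71-fold. Sim2, a bHLH-PAS factor outside these lists, lay at 102, 109.7, 114 and 96.5 CPM in palate and at 0, 0 and 0.645 in tail, 612-fold higher. With fewer than 10 reads in every tail library, Sim2 passed the filter through the palate, which fixes its direction.

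**Figure D3:**
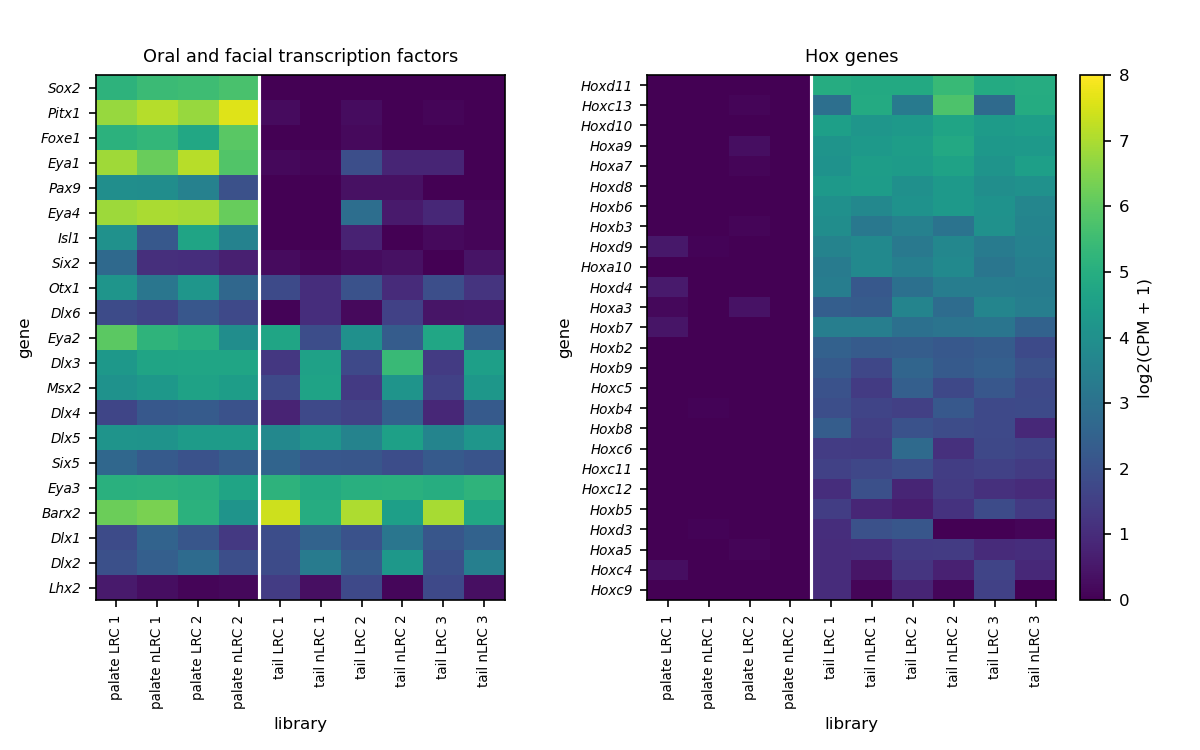
Heat map of log2(CPM + 1) for 21 oral and facial factors and 26 Hox genes in the 10 libraries. The Hox block is filled in the 6 tail libraries and nearly empty in the 4 palate libraries, and the Pitx1, Sox2, Foxe1, Eya1 and Eya4 rows show the reverse.

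Of 25 general regulators of keratinocytes, 4 were higher and 7 lower in palate (median −0.40), beside 12.9% and 11.2% of all genes tested. Gata3, a zinc-finger factor of epidermal barrier and hair lineage (ENSMUSG00000015619.10, chr2:9857078-9890034), lay at 0, 0, 0.0586 and 0.51 CPM in palate and at 66.1, 72.9 and 82.1 in tail, 715-fold lower. The tail libraries lay close together and no palate library reached 1 CPM. With fewer than 10 reads in every palate library, Gata3 passed the filter through the tail, which fixes its direction. Klf4, a factor of barrier formation, was 2.37-fold lower, Bcl11b 2.65-fold lower, and Grhl1, a regulator of desmosomal cadherins, fell by 1.74 on the log2 scale. The Ets factors Ehf and Elf3 were higher, Ehf at 182, 179.6, 189 and 161 CPM in palate against 7.15, 20.4 and 29.5 in tail (10.0-fold), and Elf3 14.9-fold. Klf5, the basal counterpart of Klf4, was 1.95-fold higher, but did not pass on unscaled TPM. On unscaled TPM, 3 passed as higher and 12 as lower.

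Genes of the later layers differed in both directions: 8 of 24 cornified envelope genes were higher and 8 lower, and among barrier lipid genes 2 of 17 were higher and 7 lower (median −0.48). Over all genes tested, 12.9% were higher and 11.2% lower. The envelope genes Asprv1 and Rptn had fewer than 10 reads in every tail library. Hrnr, Ivl, Sprr1b and the barrier lipid gene Sdr9c7 had fewer than 10 in every palate library. The filter fixes the direction of all of these. Krtdap, a secreted product of differentiating epidermal cells, lay at 8.10, 6.23, 10.7 and 10.98 CPM in palate and at 147, 184 and 326 in tail, 22.7-fold lower. Sbsn (suprabasin) was 4.24-fold lower, Casp14, the protease of epidermal cornification, 8.20-fold lower, and Abca12, the lipid transporter of lamellar granules, 9.78-fold lower. Every palate library lay below every tail library for Krtdap, Sbsn, Casp14 and Abca12. Tgm1, the cross-linking transglutaminase, was 3.60-fold higher, at 5.16 to 8.15 CPM in palate and 1.07 to 2.88 in tail. With summed libraries 4 envelope genes were higher and 6 lower, and of 18 barrier lipid genes 1 was higher and 4 lower.

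The desmosomal cadherins Dsc2 and Dsc1 differed in opposite directions. Dsc2, the desmocollin of many epithelia, lay at 339, 338, 357 and 302 CPM in palate and at 6.59, 11.03 and 18.6 in tail, 30.3-fold higher (adjusted p = 3.6e-07). Dsc1, the desmocollin of upper epidermis, lay at 2.34, 3.19, 1.76 and 3.45 CPM in palate and at 55.3, 67.8 and 91.3 in tail, 27.7-fold lower. The ranges were separate for both genes. Dsc3, the basal isoform, fell by 0.74 on the log2 scale, and Dsg3, the target of pemphigus autoantibodies, was 1.92-fold higher, but not past the threshold on unscaled TPM. Desmoplakin (Dsp, 0.37), plakoglobin (Jup, −0.28) and E-cadherin (Cdh1, −0.15, log2) did not pass. Over 52 adhesion and basement membrane genes 7 were higher and 15 lower, beside 12.9% and 11.2% of all genes tested, so that the higher count is near the share over all genes. Egfl6, a secreted matrix protein of follicle basement membrane, was 116-fold higher, at 58.1 to 95.6 CPM in palate and 0 to 1.36 in tail. Col7a1, the anchoring fibril collagen, was 2.15-fold lower, and Npnt (nephronectin), an integrin α8β1 ligand, 3.59-fold higher. Itga5 and Itgb5 fell by 2.44 and 0.61 on the log2 scale, whereas 8 of 12 integrin genes did not pass.

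For the Wnt pathway, 17 of 51 tested genes were higher and 9 lower (median 0.07), beside 12.9% and 11.2% of all genes tested. Of these, Wnt11 and Wnt9a had fewer than 10 reads in every tail library, and Wnt16 and Kremen2 in every palate library. The filter fixes their direction. Among ligands, Wnt5a, a non-canonical ligand, lay at 16.5, 24.6, 35.6 and 19.4 CPM in palate and 0, 0.544 and 3.65 in tail, 33.5-fold higher. Wnt11 was 23.3-fold higher. Wnt3, a canonical ligand, lay at 0.72, 0.532, 0.293 and 0.255 CPM in palate and 15.4, 31.3 and 43.7 in tail, 59.3-fold lower. Wnt5a, Wnt11 and Wnt3 each had separate ranges. Among receptors, 9 of 17 were higher and 4 lower, by 0.35 to 2.39 on the log2 scale. Lef1, a nuclear effector, was 9.16-fold higher (16.1, 22.2, 22.1 and 13.02 CPM against 1.505, 1.85 and 3.20), while the general target Axin2 differed by 0.11 and did not pass. On unscaled TPM the Wnt counts were 9 higher and 9 lower.

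BMP and TGF-β genes were higher in palate in 12 of 40 tested and lower in none (median 0.44), beside 12.9% and 11.2% of all genes tested. Tgfb2, a ligand, lay at 38.2, 53.1, 47.4 and 30.9 CPM in palate and 0.878, 6.32 and 14.8 in tail, 9.25-fold higher. The inhibitors Nog (2.24 ± 0.31) and Fst (1.86 ± 0.38, log2) and the BMP targets Id1 (3.42-fold) and Id3 (3.17-fold) were higher as well. Id1 lay at 41.3 to 57.8 CPM in palate, 6.40 to 10.1 in tail LRC and 18.3 to 33.7 in tail nLRC. The Bmp2, Bmp4 and Bmp7 ligands did not pass. On unscaled TPM 8 genes were higher and 1 lower.

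Of 17 tested FGF and IGF genes 5 were higher and 2 lower, beside 12.9% and 11.2% of all genes tested. The IGF binding proteins Igfbp2, Igfbp3, Igfbp4 and Igfbp5, which hold IGFs outside cells, were higher, with Igfbp5 21.2-fold and Igfbp2 4.76-fold. Of 33 tested guidance genes 7 were higher and 7 lower. The axon guidance receptors Robo1 and Robo2 differed in opposite directions: Robo1 lay at 127, 101, 140.1 and 71.9 CPM in palate and 7.98, 10.6 and 17.9 in tail, 9.65-fold higher, and Robo2 was 8.89-fold lower. Of 11 tested Hedgehog genes 1 was higher and 2 lower. The higher gene had fewer than 10 reads in every tail library. Hhip, a Hedgehog-binding inhibitor among the lower, was 156-fold lower, with 4 reads in palate and a tail range of 0.439 to 38.1 CPM. It had fewer than 10 reads in every palate library. The filter fixes the direction of both genes. Of 11 tested Notch pathway genes 3 were lower, none was higher and 8 did not pass (median −0.02). Notch1 and Notch2 fell by 0.60 and 0.57 on the log2 scale, but no Notch gene passed with summed libraries, and Notch1 did not pass without palate LRC 2.

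Detoxifying and redox enzymes were higher in palate in 13 of 20 tested genes and lower in 2 (median 1.68), beside 12.9% and 11.2% of all genes tested. Cyp2f2, among the higher, had fewer than 10 reads in every tail library, and Cyp1b1, among the lower, in every palate library. The filter fixes their direction. Gsta4, a glutathione transferase for lipid aldehydes, lay at 187, 192, 166 and 300.0 CPM in palate and 3.76, 10.9 and 27.8 in tail, 20.7-fold higher. Gstm1 was 7.72-fold, Nqo1 4.11-fold and Gclc, which makes the first intermediate of glutathione, 3.58-fold higher (adjusted p = 1.3e-06). Cyp2f2, a cytochrome best known from airway, lay at 389, 124, 136 and 54.0 CPM in palate and 0, 0.364 and 0.802 in tail, 499-fold higher. Every palate library lay above every tail library for these 5 genes, whereas Txnrd1 (−0.07) and Srxn1 (0.34, log2) did not pass. The counts were 12 or 13 higher and 1 or 2 lower in each of the other settings tried for gene lists.

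Interferon response and antigen presentation genes were higher in 14 of 23 tested and lower in none (median 1.43), beside 12.9% and 11.2% of all genes tested. Ifit2, an interferon-induced gene, lay at 3.90, 4.86, 6.86 and 9.95 CPM in palate and at most 0.411 in tail, 36.9-fold higher. B2m, the light chain of MHC class I, lay at 27.4, 28.9, 29.0 and 66.1 CPM and at 9.09, 10.3 and 13.2, 3.47-fold higher. Palate nLRC 2 held the highest value of both. Of the 14, 5 (Ifit2 among them) had fewer than 10 reads in every tail library. Without palate nLRC 2, 7 genes passed, with summed libraries 4, and on unscaled TPM 5.

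Few listed cell cycle genes passed the test, beside 12.9% higher and 11.2% lower over all genes tested. None of 20 mitosis genes passed the test, and 1 of 20 DNA replication genes was higher and 1 lower. Mki67, the proliferation antigen, lay at 225, 378, 257 and 296 CPM in palate and at 354, 369 and 698 in tail, a difference of −0.60 ± 0.21 (adjusted p = 0.061). Of 9 tested inhibitors and pocket proteins of the cycle, 3 were higher and 1 lower. Cdkn2a was 6.26-fold higher, but had fewer than 10 reads in every tail library, so its direction follows from the filter. Cdkn1a, the p53 target that inhibits cyclin-dependent kinases, fell by 0.88 on the log2 scale (adjusted p = 0.015 by edgeR), a call lost without palate LRC 2 (0.056) or palate nLRC 2 (0.050). With summed libraries 1 inhibitor or pocket protein was higher and none lower, and these were the counts of the whole cell cycle list. On unscaled TPM, 1 of the listed cell cycle genes was higher and 12 lower, 3 of them mitosis genes.

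**Figure D4:**
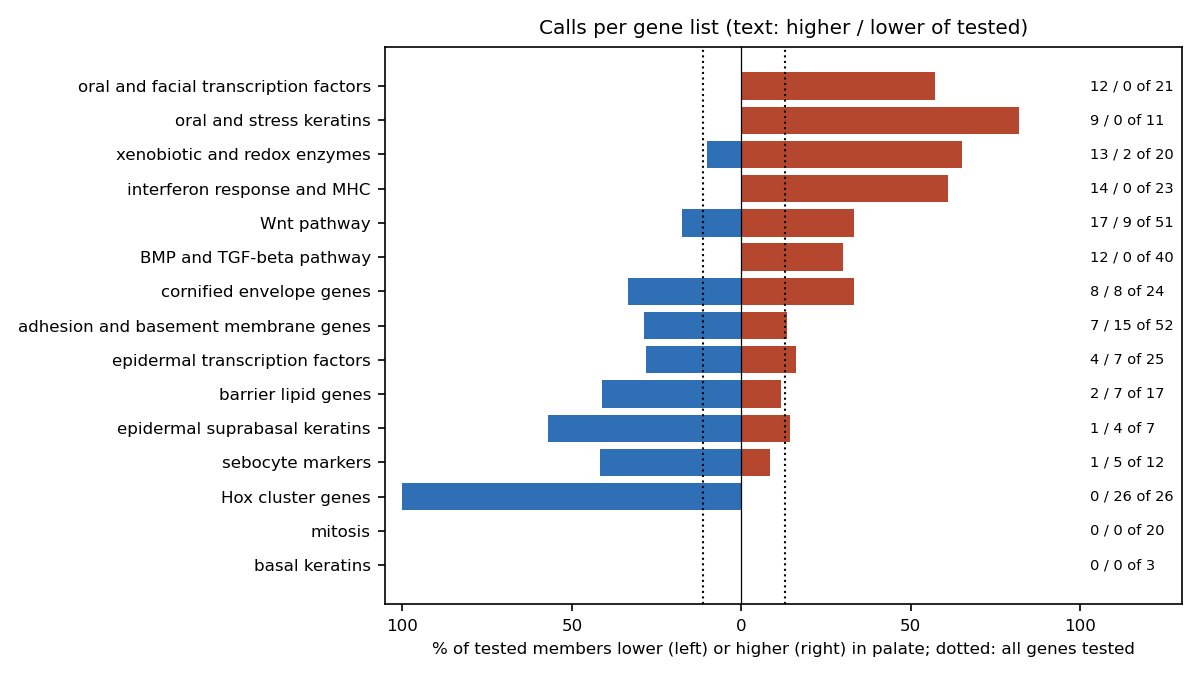
Share of tested genes higher (right) or lower (left) in palate for 15 gene lists, in percent, with dotted lines at the shares over all genes, 12.9% and 11.2%. Only mitosis genes and basal keratins stand within both lines. Oral and stress keratins, redox enzymes, interferon or MHC genes and oral factors reach farthest on the higher side, and Hox genes and suprabasal keratins on the lower. All Hox calls, 5 of 12 oral factor calls, 5 of 14 interferon or MHC calls and some calls of other lists came through the filter.

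The remaining genes with the largest rises among well-measured genes with separate ranges were of several kinds. Chil4, a secreted chitinase-like protein, lay at 109 and 124 CPM in palate LRC and 378 and 951 in palate nLRC, against at most 0.573 in tail, 2030-fold higher. Lgi2, a secreted leucine-rich protein, was 921-fold, the imprinted noncoding RNA H19 546-fold and Pirt, a regulator of TRP channels, 266-fold higher. The airway-type serine proteases Tmprss11d and Tmprss11a were 328-fold and 272-fold higher. Tmprss11d lay at 50.6, 73.0, 57.7 and 51.8 CPM in palate and at most 0.287 in tail. Wfdc2, a secreted protease inhibitor, held 2270 reads in palate and 1 in tail, a ratio of 3183 (571 to 125770). On the other side, Defb6, a β-defensin of the upper follicle, held no read in palate and lay at 3.53, 12.03 and 38.3 CPM in tail, at least 70.7-fold lower. Mettl7a3, a methyltransferase-like gene, held 2 and 6341 reads, a ratio of 2261 (626 to 18676). Chil4, Lgi2, H19, Pirt, Tmprss11d and Wfdc2 had fewer than 10 reads in every tail library, and Defb6 and Mettl7a3 in every palate library. The filter fixes the direction of these genes. Slc1a3, a glutamate transporter used to mark fast-cycling cells, was 6.68-fold higher in palate.

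Markers of other cells that a sort could hold are given as sums per library. Sebaceous gland markers summed to 147 to 230.4 CPM in palate, 237 to 323 in tail LRC and 436 to 851 in tail nLRC. Of 12 tested, 5 were lower in palate and 1 higher, beside 11.2% and 12.9% of all genes tested. Of the 5, 2 had fewer than 10 reads in every palate library, so the filter fixes their direction. Bulge genes summed to 668 to 1237 CPM in palate, 2510 to 3233 in tail LRC and 748 to 797 in tail nLRC. Upper follicle genes summed to 317 to 537 CPM in palate, 566 to 1071 in tail LRC and 184 to 254 in tail nLRC. Their part in the values of Krt79, Defb6, Hhip and the barrier lipid genes was not tested. Merkel cell markers summed to 51.5 to 75.03 CPM in palate and 0.329 to 14.9 in tail, mostly through Sox2 and Isl1, and Atoh1 and Vip held no read in palate. Fibroblast markers summed to 197 to 355 CPM in palate and 96.2 to 287 in tail; Dcn (decorin) was 41.8-fold higher in palate and Lum held no read there. Melanocyte markers summed to 4.34 to 20.2 and 33.7 to 52.2 CPM, myeloid to 14.01 to 32.9 and 4.01 to 12.6, and endothelial to 5.62 to 35.1 and 14.8 to 31.5. T cell markers summed to 12.8 to 23.6 CPM in palate and 24.5 to 66.3 in tail, without overlap.

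The tongue, a second oral tissue with the same doxycycline time (4 basal libraries), placed these palate levels. The comparison shares the palate libraries with the one above. Between palate and tongue 1330 of 14268 genes (9.32%) passed, 640 (4.49%) higher and 690 (4.84%) lower in palate. The count was 788 without palate LRC 2, and 760, 751 and 728 without tongue LRC 1, nLRC 1 and nLRC 2. Several factors that separated palate from tail did not pass between palate and tongue: Sox2 at 26.3 to 47.1 TPM in palate and 42.5 to 53.2 in tongue (log2 difference −0.05 ± 0.16), Pitx1 at 65.4 to 97.3 and 83.5 to 118 (−0.03 ± 0.18), and Sim2 (−0.09 ± 0.14). Eya4 lay at 8.96 to 18.3 TPM in palate and at most 0.04 in tongue (9.56 ± 0.39, adjusted p = 7.9e-06), and Eya1 differed by 8.27 ± 0.47. Pax9 lay the other way, at 0.57 to 5.98 TPM in palate and 33.9 to 61.1 in tongue (−3.73 ± 0.40).

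Oral keratins were unequal between the mouth tissues. Krt76 lay at 684 to 1262 TPM in palate, 4.08 to 53.3 in tongue and a mean of 0 in tail, and differed from tongue by 5.95 ± 0.82 on the log2 scale. Krt13 lay at 272 to 2324 TPM in palate and 6016 to 8505 in tongue (−2.35 ± 0.41). Krt6a lay at 1699.9 to 2287 and 1183 to 2553 TPM and did not pass (0.54 ± 0.34). Krt16 and Krt17 were higher in palate than in tongue by 3.27 ± 0.47 and 2.15 ± 0.27. Krt84 and Krt36, which were near 0 in palate, lay at 10.2 to 51.2 and 4.34 to 27.4 TPM in tongue. Dsc2 did not pass (0.03 ± 0.17), while Dsc1 differed by −1.84 ± 0.33. Among the other genes with the largest rises, Pirt (5.33 ± 0.38), Tmprss11d (2.41 ± 0.17) and Lgi2 (1.78 ± 0.21) were also higher in palate than in tongue, and Tmprss11a (−2.10 ± 0.23) was lower.

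Within slow-cycling cells alone 1801 of 16425 genes (11%) differed between palate and tail (979 or 5.96% higher, 822 or 5% lower), and within fast-cycling cells 1540 (9.38%; 884 or 5.38% higher, 656 or 3.99% lower). The sets shared 1020 genes, which is 56.6% of the first and 66.2% of the second, and 1015 had the same sign. The palate minus tail difference itself depended on label class in 48 genes (0.292%) by the interaction term (19 positive, 0.116%, and 29 negative, 0.177%), and in 238, these 48 included, when the number within a tissue was a block. Single libraries moved these counts. The LRC count was 798 without palate LRC 2, 925 without palate LRC 1 and 1057 without tail LRC 3, and the nLRC count was 953 without palate nLRC 2 and 983 without tail nLRC 3. The interaction count was 53 without tail LRC 2, 41 without palate nLRC 2 and 7 to 22 without any 1 of the other libraries.

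Dlx3, a homeodomain factor of hair and interfollicular differentiation, lay at 18.4 to 25.01 CPM in the 4 palate libraries, at 1.44 to 2.44 in tail LRC and at 21.7 to 41.7 in tail nLRC. Its palate minus tail difference was 3.57 ± 0.34 among LRC and −0.21 ± 0.31 among nLRC (log2). Msx2, a homeodomain factor downstream of BMP, had the same pattern, with 15.7 to 23.5 CPM in palate, 1.58 to 2.38 in tail LRC and 16.8 to 23.8 in tail nLRC. Palate levels of both genes overlapped those of tail fast-cycling cells and lay above those of tail slow-cycling cells. Gpnmb, a melanosome and lysosome glycoprotein, lay at 1.52 to 2.04 CPM in palate, 9.97 to 13.8 in tail LRC and 100.2 to 131 in tail nLRC. Pappa, a protease that frees IGF from its binding proteins, lay at 120.5 to 218 CPM in palate, 68.0 to 92.6 in tail LRC and 3.47 to 6.82 in tail nLRC. Pdzrn3, a ubiquitin ligase, lay at 12.2 to 36.8 CPM in palate, between tail LRC (61.8 to 78.3) and tail nLRC (4.81 to 7.81).

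**Figure D5:**
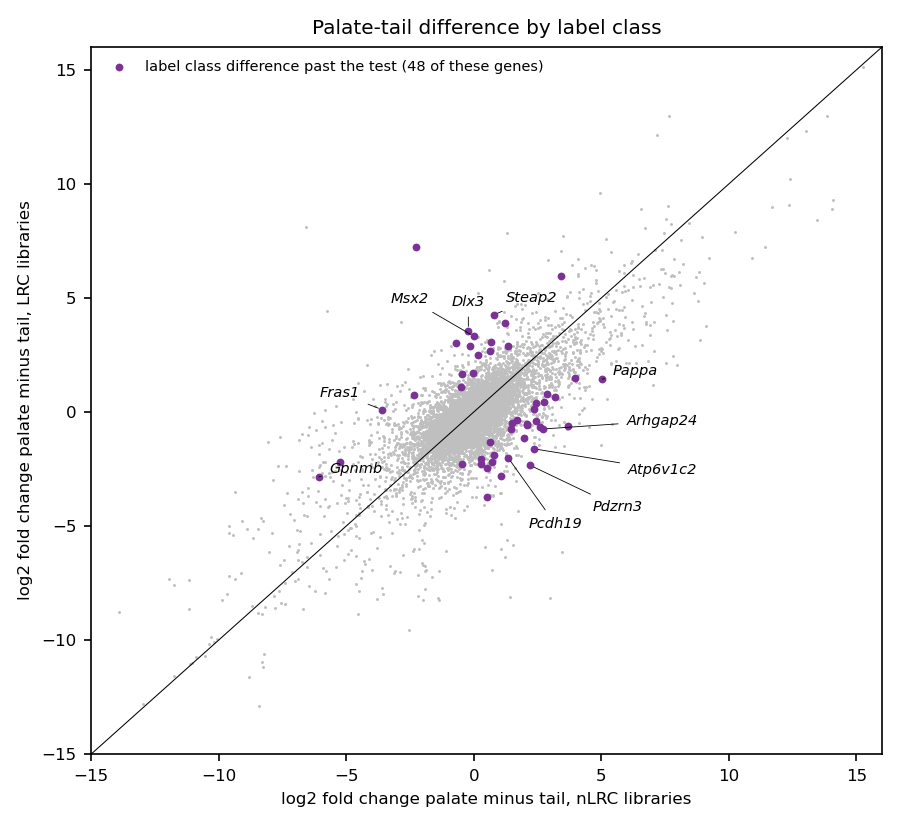
Palate minus tail log2 fold change among LRC (vertical axis) and among nLRC (horizontal axis), with the 48 genes whose difference depended on label class in colour and 10 of them named. Most genes lie along the diagonal, and Dlx3 and Msx2 lie near 0 on the horizontal axis and above 3 on the vertical axis.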

How the data were processed

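Total RNA of sorted basal cells was made into libraries with a stranded low-input kit, per the labels' protocols. The authors deposited, per library, a whole-number count of total gene reads, TPM and RPKM per gene, per the file headers. By their values the authors' counts include intronic reads, which the deposited TPM and RPKM leave out. RPKM served only for intron shares. The submitters' processing notes name mm10; the sources used here do not give the aligner, the counter or whether strand was used, so overlapping, antisense and near-identical genes (Krt6a and Krt6b, Tmprss11a and Tmprss11d, Gsta and Sprr families) are uncertain. Of 49585 gene names 47102 matched GENCODE M21, which gave the positions.

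Counts were tested with edgeR 4.0.16 (R 4.3.3): TMM, filterByExpr (minimum count 10, total 15), a quasi-likelihood test with tissue and label class, Benjamini-Hochberg adjustment over all genes tested, adjusted p below 0.05. Label-class contrasts used 4 group means, and palate against tongue a fit of these 8 libraries. SE is the log2 difference over the square root of F. A side without reads was set to 3 reads per library, and ratios over 1 to 3 reads carry 95% intervals of counting error only, which leave out differences between libraries. Gene lists and members were chosen with earlier results of these data known. Named beside list members were the 15 largest differences each way (average log2 CPM of at least 3, separate ranges, predicted, mitochondrial and ribosomal protein genes left out) and the 5 largest each way for the interaction; motif windows, Slc1a3 and Muc5b were chosen after values were seen. Genes listed but not in the tables (Cyp4f22, Il36a, Il36g, Itgam and Krt85) were not analysed here, and 2 genes of the oral factor list are not reported here and are left out of its counts. On counts simulated for palate against tail (14914 genes), 89.9% of 99 genes changed by log2 2, 48% of 100 changed by log2 1 and 0.0544% of unchanged genes were called. The simulation drew libraries independently and changed few genes, none at the lowest levels. These data differ in that, so its shares need not hold for them. Libraries of a group differed by more than sampling noise (lowest chi-square per degree 23.2).

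LRC and nLRC libraries of the same number deviated together within tail (correlations 0.528, 0.588 and 0.297) and palate (0.293), but not across tissues (−0.399 to −0.145), so numbers were taken to pair classes within a tissue only. The main fit left this pairing out and counted paired libraries as separate, with 3682 genes past the test. Where their reads were summed, 1878 passed. Alternatives were other scaling, no filter, DESeq2 1.42.0, limma 3.58.1 on log2(TPM + 1), a 2-fold threshold, replicate blocks, summed classes, all 17 libraries, ribosomal RNA-like features removed and each library left out. A limma fit on TMM-scaled TPM and a fit without palate nLRC 2 and tail LRC 2 were added after the data were seen.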

Additional observations from a re-analysis of the deposited data

Results flagged for a closer look

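In 10 genes, the 5 with the largest dependence in each direction, the palate minus tail difference was not the same in slow-cycling and fast-cycling cells by the interaction term (edgeR, adjusted p 0.0041 to 0.049). The values are the difference among LRC minus that among nLRC, on the log2 scale. They were positive for Dlx3 (3.78), Fras1 (3.69), Steap2 (3.48), Msx2 (3.30) and Gpnmb (3.23), and negative for Pdzrn3 (−4.55), Atp6v1c2 (−3.98), Pappa (−3.60), Arhgap24 (−3.46) and Pcdh19 (−3.34). Fras1, a basement membrane protein, lay at 15.7 to 47.6 CPM in palate, 30.0 to 58.7 in tail LRC and 239 to 365 in tail nLRC. Arhgap24, a GTPase-activating protein, lay at 52.8 to 108 CPM in palate, 61.7 to 145 in tail LRC and 8.65 to 16.2 in tail nLRC. Tail bulge and sebaceous markers also differed between tail label classes, and their part in these values was not tested. Fras1, Steap2, Atp6v1c2, Pappa, Arhgap24 and Pcdh19 lost the call in at least 1 of the settings tried.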

How the results depend on the processing

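Depth limits genes near 0: 1 read is 0.0586 to 0.128 CPM, and absence below 3 reads cannot be shown. Palate against tail, 3682 genes, gave 2478 to 3988 with each library left out, 4487 by DESeq2 (2278 higher, 2209 lower), 4139 without the low-count filter, 4526 with all 17 libraries and 2950 without palate nLRC 2 and tail LRC 2. It gave 883 against a 2-fold threshold, 1878 with summed classes and 2328 with a replicate block by number across tissues, whose numbers did not pair the samples (correlations −0.399 to −0.145). The replicate block by number within a tissue gave 238 interaction genes against 48.

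The LRC count, 1801, ranged from 798 to 2170 with 1 library left out. The nLRC count, 1540, ranged from 953 to 2266, and was 2337 without the filter, 2312 by DESeq2 and 972 on log2(TPM + 1). The interaction count ranged from 7 to 53, and was 427 without the filter, 226 by DESeq2, 125 with all 17 libraries and 93 on TMM-scaled TPM. Palate against tongue, 1330, ranged from 728 to 1842, and was 2323 without the filter and 2137 by DESeq2. The causes were not tested.

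Of 106 genes named above that passed between palate and tail, 82 kept the call in every setting tried, and none of the 132 named reversed once called. Of the 24 others, most lost it only against the 2-fold threshold; Msx2, Dlx6, Krt90 and Krt19 lost it in 7 to 12 settings.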
